A study of Mus musculus with 2 samples.

Results

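Keratin-associated protein genes (Krtap genes) encode small proteins that fill the space between the keratin filaments of the hair shaft and cross-link them. The family is divided by protein composition. Sulfur-rich members carry many cysteines and form disulfide bonds, whereas high glycine-tyrosine members are short and rich in these residues. The genes are usually without introns, lie in tandem clusters and are switched on late in the differentiating cells of the hair follicle, which forms well after the stage studied here. The members were the autosomal protein-coding genes of the mm10 RefSeq table whose symbol begins with Krtap, a rule that uses the symbol and no measured value. They numbered 56 among 20665 autosomal protein-coding genes, with 24 on chromosome 16, 23 on chromosome 11, 5 on chromosome 7, 3 on chromosome 10 and 1 on chromosome 1. Their lengths ran from 304 to 1891 bp, with a median of 833 bp.

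The data were ChIP-seq peak lists from snap-frozen mouse heads at E10.5, a stage of midgestation, and the series addresses histone H3.2 in the eye. Both libraries carried the same labels, namely E10.5 heads and the GFP antibody sc-9996. The labels name no strain, genotype, GFP-tagged protein, control or contrast, and do not say whether the libraries came from separate embryos. The libraries were taken as 1 group and read apart, as library 1 and library 2. The cell composition of the heads could not be checked against marker genes, because peak lists hold no expression values.

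Library 1 held 584724 peaks and library 2 held 348, of which 118 were on autosomes. On autosomes library 1 had 0.240 summits per kb, a summit being the position of highest signal within a peak. Its peaks had a median fold enrichment of 3.90 and a median width of 201 bp. The fold enrichment is the authors' value for the signal at the summit over the local background, and it was used only within a list. Total read numbers were not given in the files, so depth is described by the pileup, the number of overlapping extended reads at a summit.

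Most Krtap genes carried a single library 1 peak, and it lay on the gene itself. A gene was counted when a summit fell on its annotated span or up to 1 kb outside it. In library 1 this held for 52 of 56 genes (92.9%, 95% Clopper-Pearson interval 82.7 to 98.0), against 90.0% of all autosomal protein-coding genes, so the share was near the background. The same 52 genes had a summit inside the gene body, where the background was 88.4%. In all, 37 genes had exactly 1 summit in the window, 15 had more than 1 and 4 had none. Among all genes, by contrast, 1534 had exactly 1 summit and 17059 had more, and their median length was 17491 bp.

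No Krtap gene had a library 2 peak (0 of 56), and the background in library 2 was 0.150% of genes. The library 2 peak nearest to any Krtap gene lay 2943 kb from Krtap28-13. On chromosomes 7, 10, 11 and 16 the nearest lay at least 16346.5 kb away. Library 2, the only other library of the group, thus did not show the peaks of library 1 at these genes. All further values concern library 1 alone and carry no spread between libraries.

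Other genes as short as these gave lower shares. Of 2124 other autosomal genes between 304 and 1891 bp long, 982 (46.2%, 44.1 to 48.4) had a summit in the window. That set includes many olfactory and vomeronasal receptor genes. Without the chemosensory receptors, 682 of 917 genes (74.4%, 71.4 to 77.2) had one. The remaining genes had a median length of 1228 bp, longer than the Krtap genes. These sets were chosen after the data were seen and no test was made of the difference.

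Strong peaks were frequent at Krtap genes for their length. A peak with −log10 q of at least 5 lay in the window of 46 of 56 genes (82.1%), against 78.9% of all genes, 26.9% of other genes of that length range and 45.0% of these without chemosensory receptors. A peak among the 10% of the library with the highest fold (5.39 or more) lay in the window of 33 of 56 (58.9%), where the background was 52.6%. In the same length range the share was 10.2%, and 17.2% without chemosensory receptors. The highest fold per Krtap gene had a median of 5.66 over the 52 genes with a peak and ranged from 3.08 to 8.62. Over all genes with a peak the median was 5.51, and there the best of many peaks was taken for a typical gene.

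**Figure D1:**
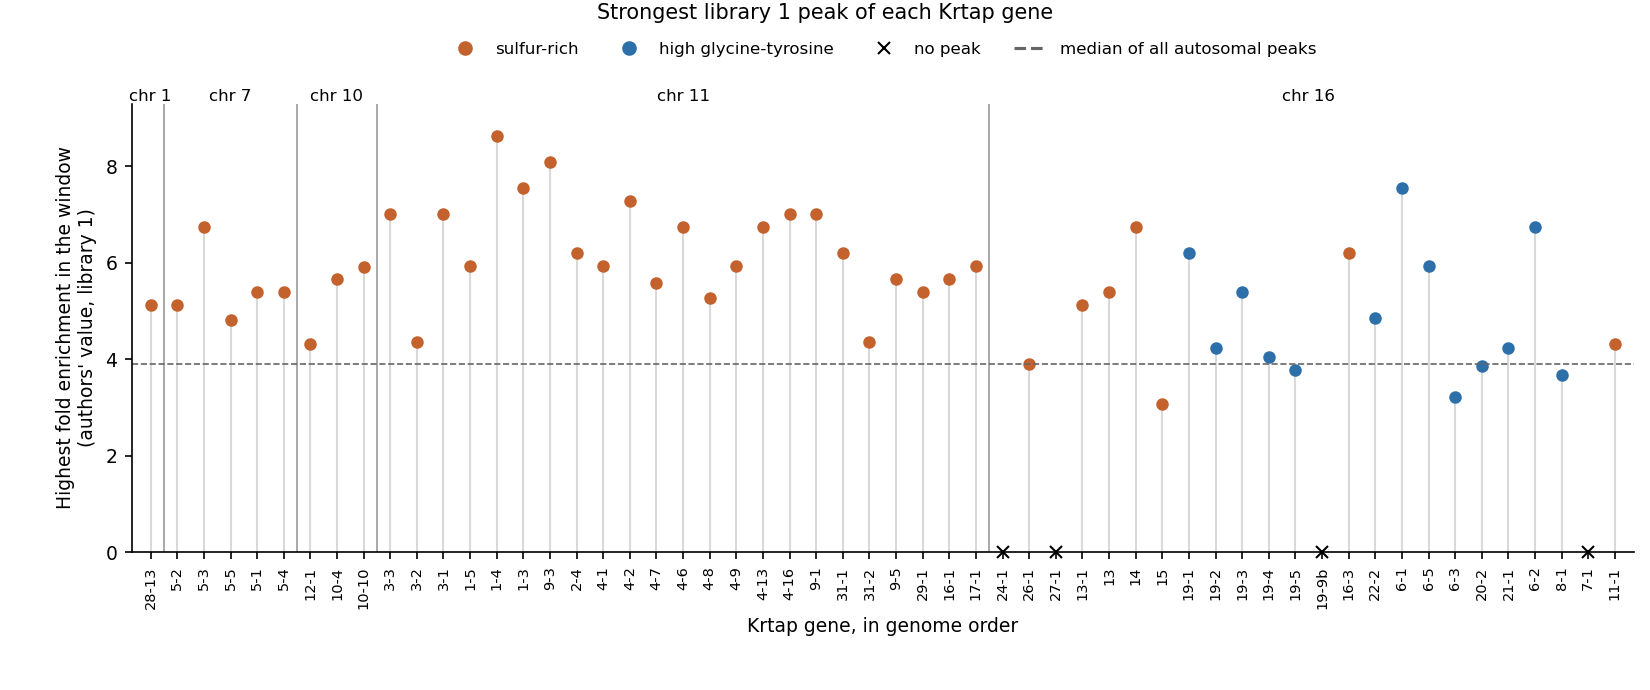
Highest fold enrichment of a library 1 peak in the window of each of the 56 Krtap genes (vertical axis, authors' value), in genome order (horizontal axis, symbols without the prefix Krtap). Points are coloured by protein class, crosses mark the 4 genes without a peak, and the dashed line is the median of all autosomal peaks, 3.90. The 23 genes of chromosome 11 all lie above that line, from 4.36 to 8.62.

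The sequences before the gene starts are shown because almost no summit lay in them, as the positions below describe. RefSeq promoter entries of build GRCm38.p6 matched 51 of the 56 genes. Each run below is the 100 bases directly before the annotated start, on the strand of the gene, with the motif TATAAA in capitals. The first 4 genes had some of the highest folds of their clusters, Krtap19-1 and Krtap19-2 have the most alike entries in the family, and the last 3 had no peak.
Krtap1-4 (chr11:99583678-99583777, minus strand): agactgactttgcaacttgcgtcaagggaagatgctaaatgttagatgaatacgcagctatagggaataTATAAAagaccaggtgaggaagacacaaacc
Krtap9-3 (chr11:99598107-99598206, minus strand): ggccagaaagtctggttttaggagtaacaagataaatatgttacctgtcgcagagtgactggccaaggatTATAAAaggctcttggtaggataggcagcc
Krtap5-3 (chr7:142201264-142201363, plus strand): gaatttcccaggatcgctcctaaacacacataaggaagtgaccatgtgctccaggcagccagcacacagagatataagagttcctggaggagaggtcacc
Krtap6-1 (chr16:89031599-89031698, plus strand): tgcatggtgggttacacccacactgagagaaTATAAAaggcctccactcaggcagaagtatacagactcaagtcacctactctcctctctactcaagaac
Krtap19-1 (chr16:88869411-88869510, minus strand): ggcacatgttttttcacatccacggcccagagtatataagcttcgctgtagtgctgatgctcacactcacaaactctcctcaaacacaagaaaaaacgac
Krtap19-2 (chr16:88874270-88874369, minus strand): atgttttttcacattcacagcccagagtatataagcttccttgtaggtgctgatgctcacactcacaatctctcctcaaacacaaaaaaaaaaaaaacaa
Krtap24-1 (chr16:88612280-88612379, minus strand): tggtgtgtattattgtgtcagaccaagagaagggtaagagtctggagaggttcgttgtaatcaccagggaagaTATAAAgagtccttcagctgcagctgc
Krtap27-1 (chr16:88671725-88671824, minus strand): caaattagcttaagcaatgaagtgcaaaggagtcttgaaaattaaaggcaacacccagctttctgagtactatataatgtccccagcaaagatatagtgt
Krtap19-9b (chr16:88932265-88932364, minus strand): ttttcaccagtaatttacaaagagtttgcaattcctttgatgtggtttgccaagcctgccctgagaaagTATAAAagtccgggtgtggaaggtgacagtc

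A TATA motif was common before these genes. TATAAA, the core of the TATA box that positions transcription initiation, occurred on the gene strand within 100 bases before the start in 41 of 51 Krtap genes (80.4%) and in 751 of 16406 other autosomal protein-coding genes (4.58%). Between 40 and 21 bases before the start, TATAAA lay in 31 of 51 Krtap genes (60.8%) and in 428 of 16406 others (2.61%). Its first base lay 31 bases before the start in Krtap1-4 and 69 bases before it in Krtap6-1. Of the genes without a peak, Krtap24-1 and Krtap19-9b held the motif and Krtap27-1 did not, so the motif was found with and without a peak. A match is a description of these letters and not of a bound factor. On either strand within 250 bases, TATAAA occurred in 80.4% of Krtap and 12.3% of other entries, CCAAT in 33.3% and 36.2%, and CACGTG, which is its own reverse complement, in 5.88% and 6.71%. AACAAAG occurred in 13.7% (7 of 51 Krtap entries) and 4.22%, and CTTTGAAGA in 5.88% (only 3 of 51) and 0.402%. The 300-base entries were poorer in G and C than those of other genes, with a median of 41.3% (34.3 to 55.0) against 56.7%.

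The summits lay just inside the gene, after the start. For the 51 genes with a known strand, 35 of 53 summits in gene bodies (66.0%) lay 100 to 299 bp after the annotated start. The density there was 3.43 summits per kb. Other genes of that length range had 0.505 per kb at these positions, and 0.892 per kb without chemosensory receptors. The strongest peak of a gene had its summit a median of 207.5 bp after the start, with quartiles at 140.5 and 278.8 bp, over 48 genes. In 40 of these 48 genes (83.3%) it lay in the first 400 bp, and in 42 (87.5%) in the first 50% of the gene. Only for Krtap11-1, a sulfur-rich member of chromosome 16, did the peak of highest fold lie before the start, at -338 bp. Its fold was 4.31 with 15 reads, beside 4.13 with 17 reads in the body.

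Almost no summit lay upstream. The kilobase before the start held 3 summits over 51 genes (0.0588 per kb, 95% Poisson interval 0.0121 to 0.172), the body 53 (1.21 per kb, 0.904 to 1.58) and the kilobase after the end 8 (0.157 per kb, 0.0677 to 0.309). The body therefore differed from both sides by more than the counting error. Other genes of that length range showed 0.148, 0.516 and 0.136 per kb in the same order. Without chemosensory receptors these values were 0.305, 0.809 and 0.257 per kb, so the excess in the body over the sides was present in other short genes and smaller there. Peaks reached into the 250 bases before the start in 11 of 51 genes, and in none did a summit lie there. The 3 upstream summits belonged to Krtap5-2, Krtap10-4 and Krtap11-1.

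**Figure D2:**
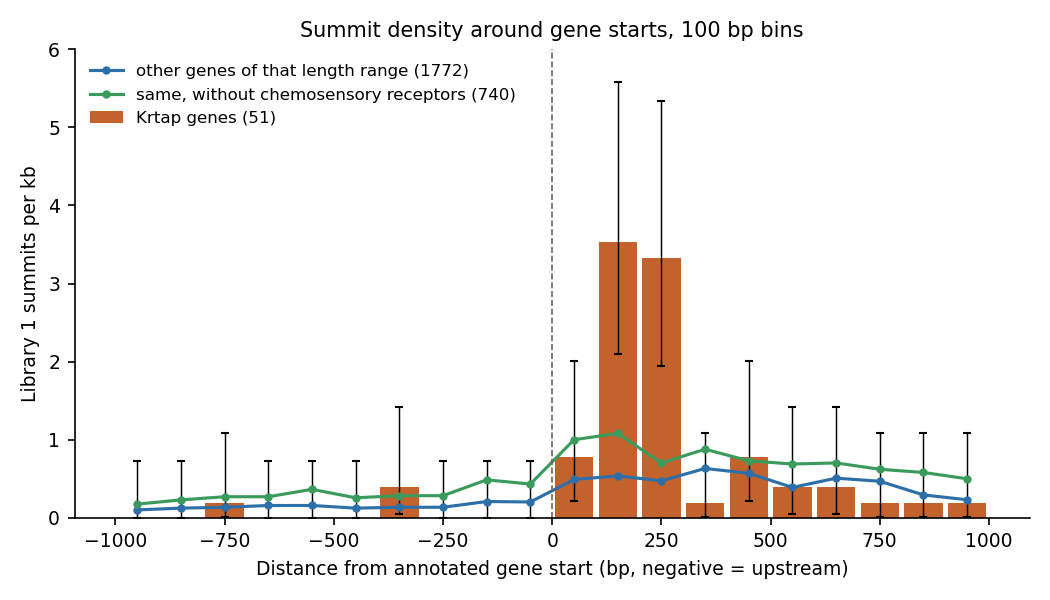
Library 1 summits per kb (vertical axis) in 100 bp bins from 1000 bp before to 1000 bp after the annotated gene start (horizontal axis). Bars show 51 Krtap genes with 95% Poisson intervals, and lines show 1772 other genes of the same length range and the 740 of them that are not chemosensory receptors. The bars from 100 to 299 bp after the start stand at 3.53 and 3.33 per kb, and no Krtap summit lies in the 300 bp before it.

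Peaks on Krtap bodies were wider than the typical peak of the library. The 57 summits in bodies belonged to peaks with a median width of 428 bp (133 to 1188), against 201 bp for all autosomal peaks and 295 bp for body peaks of other genes of that length range without chemosensory receptors. They covered a median of 52.4% of the gene. Their median fold was 5.39, and 33 of 57 (57.9%) were among the top 10% of the library, against 10.8% of all autosomal peaks. Pileups ran from 12 to 31 reads, with a median of 20. Of these peaks 43 (75.4%) were called against the genome-wide background of 2.713 extended reads, and the highest local background was 5.88 reads, at Krtap3-2. The 15 summits outside the bodies had a median fold of 4.04 and a median width of 176 bp.

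Chromosome 11 held the strongest peaks. All 23 genes of its cluster, which are sulfur-rich families, had a summit in the body, where the background was 88.4%. Of all coding genes on chromosome 11, 96.1% had a summit in the window, so the count is near the background. A peak in the top 10% was present at 20 of the 23 genes (87.0%), where the background was 52.6%. The highest fold was 8.62 at Krtap1-4, in a peak at chromosome 11, 99583313 to 99583609, with a pileup of 31 reads (95% Poisson interval 21.1 to 44.0). Krtap9-3 followed with 8.08 and 29 reads (19.4 to 41.6), and Krtap1-3 with 7.54 and 27 reads (17.8 to 39.3). These intervals overlap, so the order of the 3 genes is within counting error. Of the 23 genes 7 had 2 summits in the window, Krtap3-3 and Krtap1-4 among them, and the other 16 had 1. The lowest folds were 4.36 at Krtap3-2 and at Krtap31-2. At Krtap3-2 the pileup was 29 reads, equal to that at Krtap9-3, but the local background was 5.88 reads in place of 2.71, so its low fold came with a high background and not with few reads.

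Families on chromosome 11 covered much the same range. The 8 Krtap4 genes had highest folds of 5.27 to 7.27, the 3 Krtap1 genes 5.92 to 8.62, the 3 Krtap9 genes 5.66 to 8.08 and the 3 Krtap3 genes 4.36 to 7.002. Each of these genes had a body summit, and no family stood apart. Krtap16-1, the longest member at 1891 bp, had the widest peak, 1188 bp, with a fold of 5.66 and its summit 133 bp after the start.

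On chromosome 7 all 5 genes, the sulfur-rich Krtap5 family, had a body summit, where the background was 88.4% of all genes. Krtap5-3 had a fold of 6.73 and 24 reads (15.4 to 35.7) in a peak of 1160 bp at chromosome 7, 142201387 to 142202546. Krtap5-1 and Krtap5-4 had 5.39 and 19 reads each (11.4 to 29.7). Krtap5-2 had 3 summits and Krtap5-1 had 2. Peaks on these bodies had a median width of 725.5 bp, and the strongest summits lay farther from the start than elsewhere, at a median of 466 bp (270 to 710), against 242 bp on chromosome 11 and 144 bp on chromosome 16. With 5 genes that share sequence, this is a description only.

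On chromosome 10 the 3 genes lie within the span of Tspear, a long gene, and had several summits each. Krtap10-10 had 4 with a highest fold of 5.90, Krtap10-4 had 3 with 5.66 and Krtap12-1 had 2 with 4.31. Here 6 of 9 summits lay outside the bodies, a density of 1 per kb (0.367 to 2.18) against 0.0652 (0.0135 to 0.191) around the chromosome 11 genes. Krtap28-13, alone on chromosome 1, had 1 summit in its body with a fold of 5.12 and 18 reads (10.7 to 28.4).

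Chromosome 16 held the weaker peaks by fold and all 4 genes without one. Of its 24 genes 20 (83.3%, 62.6 to 95.3) had a body summit, against 88.4% of all genes. A peak in the top 10% was present at 8 (33.3%), below the 52.6% of all genes. The median lengths were 608 bp for the 24 genes and 17491 bp for all genes. In the Krtap length range 10.2% of other genes had such a peak, and 17.2% without chemosensory receptors. The highest folds were 7.54 at Krtap6-1, with 27 reads (17.8 to 39.3) at chromosome 16, 89031697 to 89031957, and 6.73 at Krtap14 and Krtap6-2, with 24 reads each. Krtap11-1 had 3 summits, with a highest fold of 4.31, and Krtap19-5 and Krtap22-2 had 2 each, with highest folds of 3.77 and 4.85. The genes without a summit were Krtap24-1, Krtap27-1, Krtap19-9b and Krtap7-1. Their nearest summits lay 15.2, 6.51, 5.11 and 2.33 kb away. Body peaks on chromosome 16 had a median fold of 4.54, against 5.25 on chromosome 7, 5.66 on 10 and 5.92 on 11. The median pileups were 19, 19, 20 and 22 reads in the same order. On chromosome 16, 12 of 20 body peaks were called against the genome-wide background. On chromosomes 7, 10 and 11 these were 5 of 6, 2 of 3 and 23 of 27. The part of the local background in the lower folds was not tested.

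The 2 protein classes of chromosome 16 did not separate. By family number, 15 genes belonged to the high glycine-tyrosine class, and 13 of them (86.7%, 59.5 to 98.3) had a peak, with a median highest fold of 4.23 (3.21 to 7.54). Of the 9 sulfur-rich genes 7 (77.8%, 39.99 to 97.2) had one, with a median of 5.12 (3.08 to 6.73). Both shares were below the 90.0% of all genes, which lies inside both intervals. Peak widths had medians of 225 and 303 bp, where the genes themselves had medians of 534 and 855 bp. Both ranges of fold overlap, and the intervals of both shares overlap. Krtap16-3 was counted as sulfur-rich by its family number, and protein sequences were not used here.

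Genes with alike promoter entries were compared by fold in 2 pairs. Krtap19-1 and Krtap19-2, whose 300-base promoter entries are 91.0% identical, had folds of 6.19 and 4.23. Their pileups were 22 (13.8 to 33.3) and 21 reads (13.0 to 32.1), and the local background was 2.71 and 4.20 reads, so the pileups were alike and the backgrounds differed. The Krtap31-1 and Krtap31-2 entries are 87.0% identical, and the folds were 6.19 and 4.36. Here the pileups were 22 (13.8 to 33.3) and 18 reads (10.7 to 28.4), with overlapping intervals, and the local backgrounds 2.71 and 3.36 reads. For all 51 entries the closest other Krtap entry had a median identity of 55.0%, and only these 4 genes reached 80%. How reads that match several copies were placed is not given in the sources used here, and its part in these values was not tested.

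As whole regions, the clusters held fewer peaks than the sequence beside them. A cluster was a run of at least 5 Krtap genes with gaps under 200 kb, and the neighbouring sequence was 500 kb on each side without Krtap windows. The chromosome 11 cluster (99549132 to 99994994) had 117 summits, or 0.262 per kb, against 0.548 beside it, a ratio of 0.479 (95% exact interval 0.389 to 0.586). The chromosome 7 cluster (142173532 to 142305503) had 38 summits, 0.288 per kb against 0.522, a ratio of 0.552 (0.386 to 0.767). The chromosome 16 cluster (88609709 to 89572183) had 136 summits, 0.141 per kb against 0.263, a ratio of 0.537 (0.434 to 0.663). The intervals cover counting error only. Over all autosomes the density was 0.240 per kb, and over whole chromosomes 7, 11 and 16 it was 0.278, 0.336 and 0.197. The chromosome 7 and 11 clusters were thus near the autosomal level and lay beside denser sequence, though the chromosome 11 cluster was below its own chromosome. The chromosome 16 cluster lay below both its chromosome and all autosomes.

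The sides of the chromosome 16 cluster were unequal, with 0.0500 summits per kb on the lower side and 0.476 on the higher side. The cluster thus lay between a sparse and a dense region, and its ratio rests on the higher side. With 200 kb on each side the ratio was 0.927 (0.680 to 1.27), and with gaps under 50 kb it was 1.11 (0.731 to 1.63). On chromosome 11 the sides had 0.444 and 0.652 per kb, and on chromosome 7 they had 0.534 and 0.510, all above the cluster. Type I hair keratin genes lie on both sides of the chromosome 11 cluster, Krt39 and Krt40 on the lower side and the other 7 on the higher side. The group of 3 genes on chromosome 10, added after the data were seen, had 0.548 per kb against 0.744, a ratio of 0.736 (0.562 to 0.9495). With 200 kb on each side its ratio was 0.763 (0.574 to 1.002), and with 1000 kb it was 0.873 (0.670 to 1.12), and both of these intervals include 1.

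**Figure D3:**
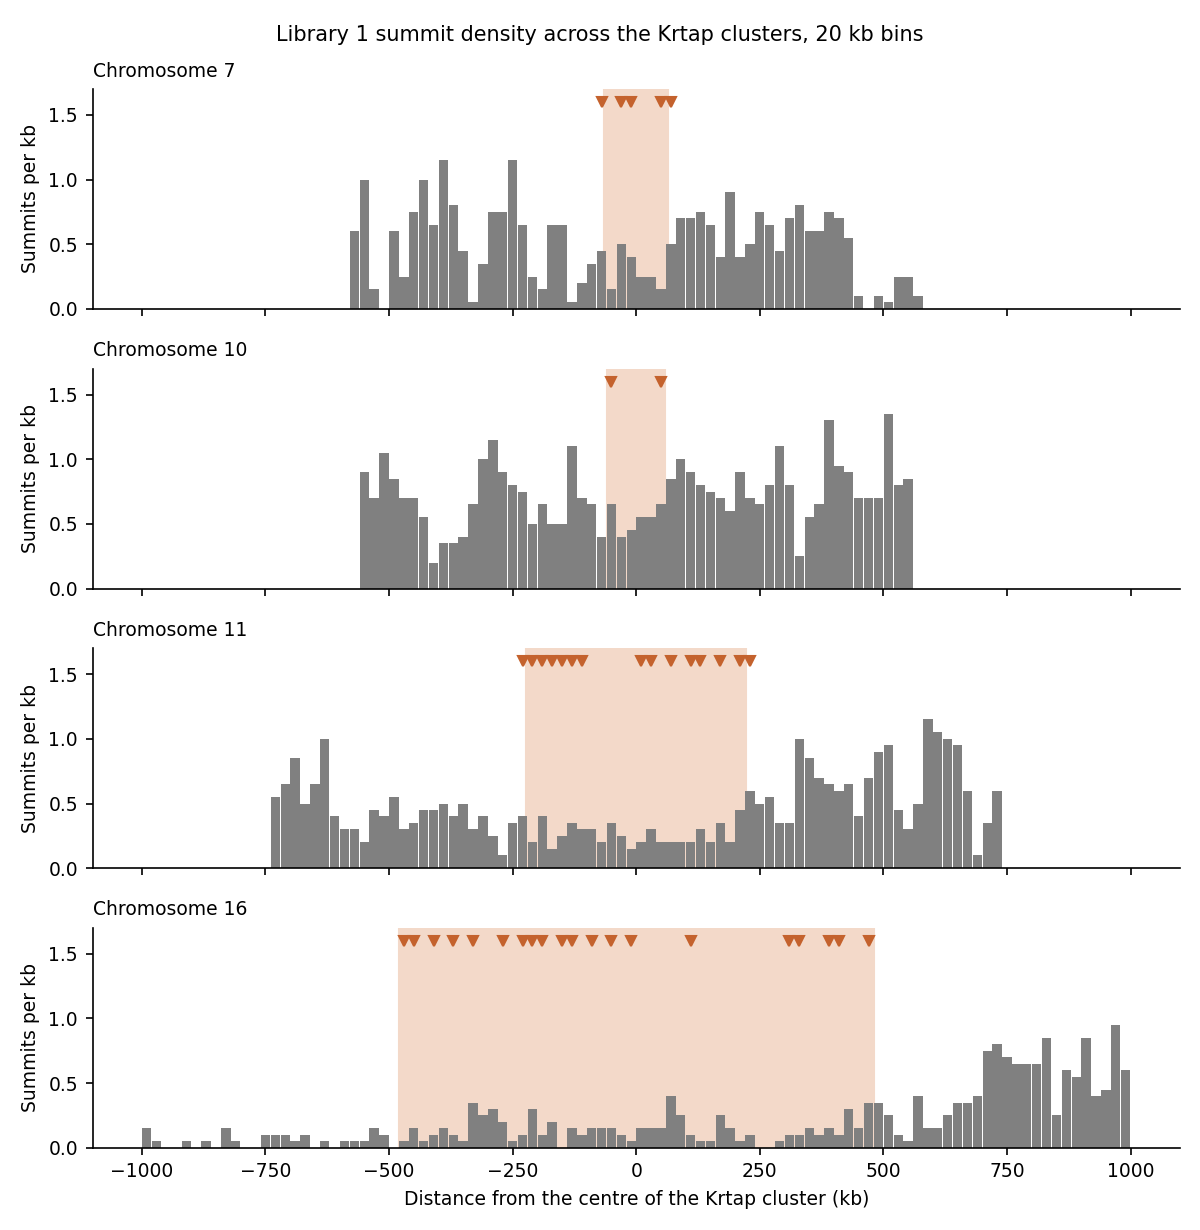
Library 1 summits per kb in 20 kb bins (vertical axis) against distance from the centre of each Krtap cluster in kb (horizontal axis). Shading marks the cluster and triangles mark bins that hold a Krtap gene. Density is lower over the clusters of chromosomes 7 and 11 than beside them and rises towards the higher side of chromosome 16, where the flanks have 0.0500 and 0.476 summits per kb.

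Against the neighbouring sequence, the bodies in the clusters and the sequence between them went opposite ways. The neighbouring sequence was taken whole, with its stretches outside coding genes. Bodies of other genes of the Krtap length range held 0.514 summits per kb, and 0.786 without chemosensory receptors. All autosomes had 0.240 per kb, and the sequence between Krtap windows was near that level on chromosomes 7 and 11. Krtap bodies on chromosome 11 had 1.24 summits per kb (0.818 to 1.81), 2.26 times the neighbouring density (1.48 to 3.33), while the sequence between Krtap windows had 0.230, or 0.419 times that density (0.331 to 0.527). On chromosome 16 the bodies had 1.22 per kb, 4.65 times the neighbouring density (2.79 to 7.32), and the sequence between had 0.125, or 0.474 times (0.377 to 0.594). On chromosome 7 the bodies had 0.990 per kb, 1.90 times (0.693 to 4.15), and the sequence between 0.259, or 0.496 times (0.331 to 0.716). For chromosomes 11 and 16 both intervals exclude 1 in opposite directions, while on chromosome 7 the interval for the bodies, with 6 summits, includes it. On chromosome 16 the lower density between the windows holds only against the higher side, since 0.125 per kb (0.103 to 0.150) lay above the 0.0500 (0.0324 to 0.0738) of the lower side. Outside all coding gene windows the sequence between had 0.105 per kb (0.0839 to 0.130) and the neighbouring sequence 0.128 (0.0990 to 0.162), with overlapping intervals.

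Strong peaks by fold made up a larger share inside the clusters of chromosomes 7, 11 and 16 than beside them. The fold depends on the local background as well as on the reads, and local backgrounds beside the clusters are not reported here. On chromosome 11, 59 of 117 cluster peaks (50.4%) were in the top 10% of the library, against 67 of 548 (12.2%) beside the cluster. On chromosome 7 the shares were 34.2% and 7.47%, and on chromosome 16 they were 25.7% and 8.75%. Strong peaks alone were thus denser inside the cluster, with ratios of 1.98 (1.37 to 2.85) on chromosome 11, 2.53 (1.24 to 4.83) on chromosome 7 and 1.58 (0.908 to 2.80) on chromosome 16. The last of these intervals includes 1. Between Krtap windows the share in the top 10% was still 43.7% on chromosome 11, 33.3% on chromosome 7 and 24.1% on chromosome 16. On chromosome 10 it was 7.14% between the windows and 10.2% beside the group.

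**Figure D4:**
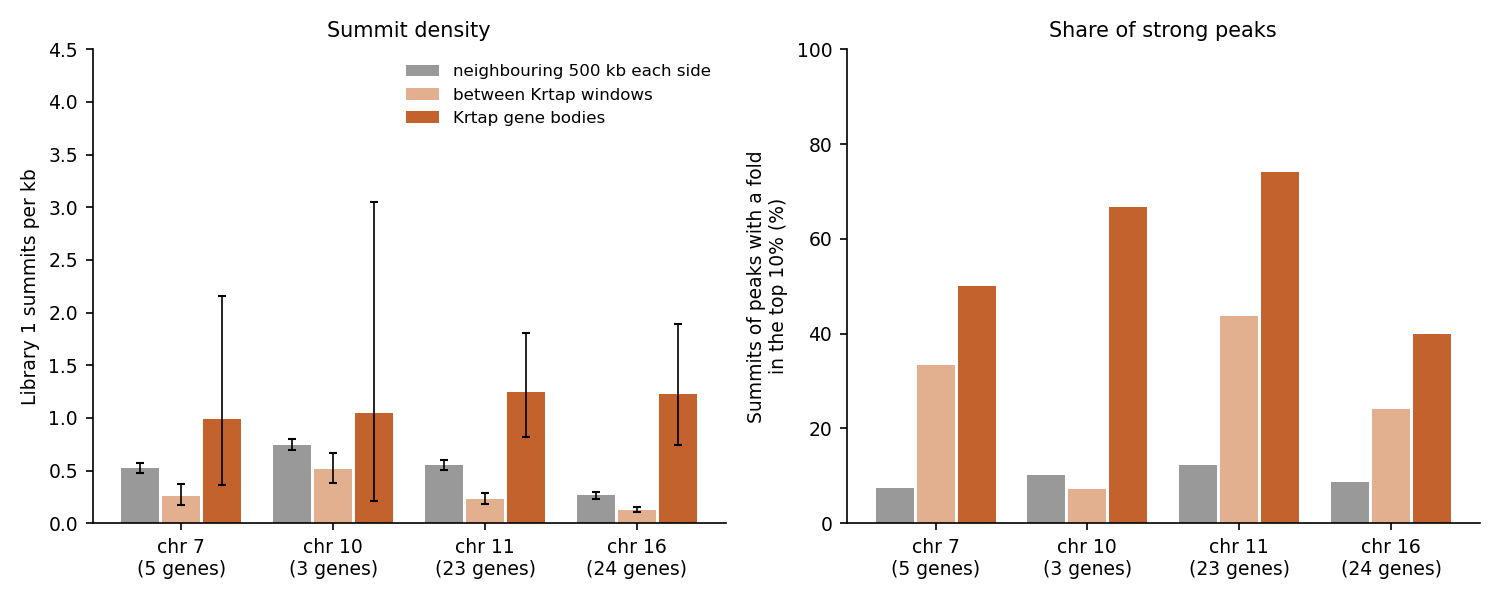
Left, library 1 summits per kb with 95% Poisson intervals in the sequence beside each cluster, between Krtap windows and in Krtap gene bodies. Right, the percentage of those summits whose peak has a fold in the top 10% of the library. On chromosomes 11 and 16 the bodies reach 1.24 and 1.22 summits per kb while the sequence between them has 0.230 and 0.125.

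Hair keratins, the filament proteins with which Krtap proteins associate, had peaks throughout. All 9 type I genes on chromosome 11 had a body summit, where the background is 88.4%, with 0.717 summits per kb of window and highest folds from 4.62 to 6.46. Krt33b had 6.46 and Krt31 had 6.25. All 5 type II genes with an entry had one as well, with 0.959 per kb, led by Krt86 (5.92), and Krt81 had 5.66. These genes are longer, with medians of 6235 and 6506 bp, and each had several peaks. The window density over all Krtap genes was 0.450 per kb (0.352 to 0.567), between these values and the 0.322 per kb of all genes. The kilobase on either side makes up more of the window of a short gene. In bodies alone the order differed, with 1.19 per kb (0.898 to 1.54) for Krtap genes. The type I genes had 0.865 (0.634 to 1.15), the type II genes 1.06 (0.748 to 1.46) and all genes 0.320.

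Genes of other hair structures were covered as widely. All 14 inner root sheath and hair shaft genes with an entry had a summit in the window, where the background is 90.0%. The highest folds were at S100a3 (7.96), which encodes a calcium-binding protein of the hair cuticle, and Tgm3 (7.27), a transglutaminase that cross-links structural proteins. All 19 hair follicle regulators with an entry had a summit there too. Trps1, a zinc finger repressor, and Cux1, a homeodomain protein, both reached 7.002. The genes of these lists are longer than the Krtap genes, with medians of 9689.5 and 19493 bp, and each had several summits. Their highest folds were thus taken over more peaks, with 18 summits at S100a3, 25 at Tgm3, 13 at Trps1 and 116 at Cux1. The median of the highest folds was 5.66 for the first list and 5.12 for the second, beside 5.51 for all genes with a peak.

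The genes of the epidermal differentiation complex, a cluster on chromosome 3 for proteins of the cornified skin layer, had a layout like that of the Krtap genes. Of 43 genes, all but Krtdap on chromosome 3, 40 (93.0%) had a body summit, near the 88.4% of all genes. A peak in the top 10% was present at 19 (44.2%), below the 52.6% of all genes. The median lengths were 1690 bp for the 43 genes and 17491 bp for all genes. Bodies held 0.480 summits per kb and the kilobase on either side 0.0465, where the Krtap values were 1.19 and 0.134. Lce1g, which encodes a late cornified envelope protein, had 7.54, and Flg, which encodes filaggrin, had 7.27. A body peak with few summits beside it was therefore not particular to Krtap genes.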

How the data were processed

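Library 1 and library 2 are replicates 1 and 2 of 1 group, numbered in accession order. The submitters' processing notes name the builds mm10 and hg38 and, as tools, MACS2 2.1.0, Bowtie 1.1.2, bcl2fastq 2.17 and Trimmomatic 0.33, without roles or settings. Each deposited narrowPeak list gives a score (10 times the −log10 q), a fold enrichment ratio, −log10 p and −log10 q values and a summit offset, as made by the authors' caller for each library alone.

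Peaks were placed on genes with the RefSeq table of GRCm38.p6 (1-based coordinates), which gives gene ends but no exons. Strand came from the promoter entries. Identity between entries is 1 minus the edit distance over the entry length (edlib). Pileups and local backgrounds were solved from fold and −log10 p with a tolerance of 0.002, and all 72 peaks in Krtap windows gave a whole pileup. Counting steps were checked on simulated data. Intervals are 95% Clopper-Pearson, exact Poisson or exact conditional binomial intervals, and cover counting error only. The design has no contrast, so no p-value was computed.

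The members, lists and settings were chosen with earlier results of these data known. Genes named by rule were, in each cluster, the 3 with the highest fold and the 2 with most summits, those without a peak, and the top 2 of each list. Other genes were named after their values were seen. Krt85, Krt74 and Eda were planned for the lists but had no autosomal protein-coding entry under these symbols.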

Additional observations from a re-analysis of the deposited data

How the results depend on the processing

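Of the 46 alternative values computed, 6 turned direction, 17 moved and 23 did not. A share, density, median or ratio counted as moved when it left the 95% interval of the reported value, and a count of genes when it differed by over 1.5 times. The share of Krtap genes with a library 1 peak was 82.1% with −log10 q of at least 5 and 58.9% with the 10% of peaks of highest fold. The density in Krtap windows, 0.450 summits per kb, was 1.19 in bodies alone, 0.248 with 5 kb beyond either end, 0.344 with −log10 q of at least 5 and 0.219 in the top 10%, where the median of highest folds was 6.19. Leaving out 1 library gave 0 genes (without library 1) to 52 genes (without library 2).

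Peak strength and the sequence compared both moved the cluster ratios. With −log10 q of at least 5 they were 0.932 on chromosome 7, 0.811 on 11, 0.696 on 16 and 0.974 on 10. In the top 10% they turned to 2.53, 1.98 and 1.58 on chromosomes 7, 11 and 16, and the ratio was 0.776 on chromosome 10. Krtap windows alone against the neighbouring sequence gave 0.954 (0.410 to 1.89) on chromosome 7 and 0.814 (0.544 to 1.18) on 11. The ratios turned to 1.42 (0.892 to 2.16) on chromosome 16 and 1.36 (0.621 to 2.60) on 10. Each of these intervals includes 1. Against coding gene windows beside the cluster the ratio was 0.385 on chromosome 11 and 0.343 on 16. On chromosome 16 it was 0.927 with 200 kb on each side and turned to 1.11 with gaps under 50 kb. That gap left no cluster on chromosomes 7 and 10. The cause was not tested for any of these shifts. Pileups in Krtap windows were 10 to 31 reads, and the part of depth in the folds was not tested.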

Other observations

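Other protein-coding genes lie among the Krtap genes under provisional symbols, and their peaks differed from cluster to cluster. Inside the chromosome 11 span all 15 such genes had a body summit, where 88.4% of all genes had one, and 12 had a peak in the top 10% of the library, where 52.6% of all genes had one. Their bodies held 1.15 summits per kb and the kilobase on either side 0.167, where the Krtap values on that chromosome were 1.24 and 0.0652. Gm11563 had a fold of 8.89, above any Krtap gene, and Gm11937 had 7.81.

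Inside the chromosome 16 span 25 of 34 such genes (73.5%) had a body summit and 8 (23.5%) had a peak in the top 10%, both below the shares of all genes. The median length of these 34 genes was 287.5 bp, against 17491 bp for all genes, and their bodies held 1.22 summits per kb. One of them, 2310057N15Rik, has Krtap13-1 among its synonyms and had a fold of 6.88. On chromosome 7 all 5 such genes had a body summit, at 0.410 per kb of body (0.188 to 0.779). The Krtap bodies there had 0.990 (0.363 to 2.15), and the intervals overlap. Gm40460 and Gm46022, at 11958 and 7384 bp, make up most of the length of these 5 genes, and Gm40460 also covers the Krtap5-5 summit. The shorter Gm7579, Gm4559 and Gm10013, of 1265, 600 and 738 bp, held 2, 1 and 1 body summits. On chromosome 10, where 1 of the 13 is Tspear, all 13 had one, and 2 (15.4%) had a peak in the top 10%. No test was made between these genes and the Krtap genes. They were named after their values were seen, and the symbol rule left them out of every Krtap count.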
